A study of Mus musculus with 2 samples.

Results

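The enzymes that copy DNA and supply its building blocks were followed here as a set of 46 mouse genes, out of 49492 genes in the table. The genes were listed by function and the rule used no measured value, but earlier results of these data were known when they were chosen. They comprised 9 genes of origin licensing, 12 of the replicative helicase, 20 of the polymerases and the replication fork, and 5 of nucleotide synthesis. All 46 had enough reads to be tested. Basal cells of the mammary epithelium (lin-CD24+CD29hi) were sorted from WT adult female mice of 8 to 10 weeks and grown in matrix gel for 11 to 14 days, in medium with EGF and ITS. In the group ctrl they grew alone. In the group M2 they shared the well with macrophages that were derived from bone marrow, driven to an M2-like state with IL-4 and IL-13, and kept in an insert with a porous membrane, where they were replaced at intervals. RNA of the colonies or organoids was sequenced, with 1 library in each of the 2 groups, and how many mice or wells were pooled is not given in the sources used here.

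The ctrl library held 26912610 reads assigned to genes and the M2 library 29413844. Because each group holds 1 library, no difference below has a replicate check, and each test compares these libraries and not the conditions. Keratins of basal cells (Krt5, 56383 reads in ctrl and 83619 in M2) and of luminal cells (Krt8, 29888 and 36348 reads) were abundant in both. The basal markers went both ways, with 5 of 10 higher and 5 lower by the exact binomial test described below, Krt17 (1.39) and Oxtr (-2.18) being the extremes in log2 fold difference. Of 11 luminal markers, 3 were higher, Krt7 (1.19) of them at 2-fold, and 8 lower. Of those 8, 5 were lower at 2-fold, namely Pgr (-2.54), Esr1 (-1.94), Prlr (-1.59), Foxa1 (-1.55) and Elf5 (-1.11). Of all genes tested 27.0% were higher and 26.1% lower, and at 2-fold 8.16% and 6.55%. Of 16 macrophage markers, 6 had no read in either library, Adgre1, Ptprc and Tyrobp among them, and the 16 summed to 10.5 CPM (reads in a library scaled to 1000000 reads) in ctrl and 12.6 in M2. Most of these reads lay in Cd68 (170 reads in ctrl and 165 in M2) and Csf1r (94 and 92), which did not pass the test. Of the 6 markers with enough reads to be tested, 2 were higher, Cd163 (2 and 30 reads) and Aif1 (3 and 40). The 9 fibroblast markers summed to 339 CPM in ctrl against 143 in M2. Of the 8 with enough reads to be tested, 2 were higher, Dcn (1.53) and Pdgfra (0.37). Another 4 were lower, Col3a1 (-2.61) the most. The part of these marker differences in the results below was not tested. In bulk RNA of this kind, more cycling cells and more RNA of these genes per cycling cell cannot be told apart.

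A cell copies its genome once per division by separating the loading of the helicase from its start. In G1 phase the origin recognition complex (ORC), Cdc6 and Cdt1 load the MCM2-7 ring onto DNA, and from the onset of S phase geminin holds Cdt1 back so that origins are not licensed again. Cdc45 and the GINS complex then turn the ring into an active helicase, polymerases follow it, and ribonucleotide reductase with the enzymes of thymidylate metabolism keeps the deoxynucleotide pool filled. Many of these genes are targets of E2F factors, which are released from the retinoblastoma protein late in G1.

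Most of the replication genes had slightly higher levels in the M2 library, and few differed by much. The 46 genes held 31312 reads, or 0.116%, of the ctrl library and 39539 reads, or 0.134%, of the M2 library. As TMM-scaled CPM (scaled by the trimmed mean of M values, as are all CPM given here) the summed level was 1140 in ctrl against 1372 in M2, giving a log2 ratio of 0.27 (95% interval 0.25 to 0.29). This and every interval below covers counting error only. The median log2 fold difference of the 46 genes was 0.27, with a range of -0.61 to 1.15, beside a median of -0.0032 and quartiles of -0.32 and 0.35 over all 19233 genes tested. The difference was above 0 for 39 of the 46 genes (84.8%) and for 49.7% of all genes tested.

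Each gene was tested with an exact binomial test on its reads in both libraries, and "higher" or "lower" is used below of genes with an adjusted p under 0.05, whatever the size of the difference. On that rule 29 of the 46 genes (63.0%) were higher in M2, where 27.0% of all genes tested were, and 3 (6.52%) were lower, where 26.1% were. Among the 14388 genes with at least as many reads as the least abundant replication gene, 31.4% were higher and 30.5% lower. With at least a 1.5-fold difference, 10 of 46 (21.7%) were higher, beside 12.8% of all genes and 12.4% of those as abundant, and 0 were lower, beside 11.1% and 10.4%. With at least a 2-fold difference, the size that the study used, 2 genes (4.35%) were higher, Gmnn and Mcm10, beside 8.16% of all genes and 6.55% of those as abundant. The same test gave 0 genes lower at 2-fold, beside 6.55% and 4.73%, and 0 also at an unadjusted p under 0.05, at which 4 replication genes were lower by any amount. Every gene that passes the adjusted rule also passes the unadjusted one. At the unadjusted rule at least 6.55% of all genes tested were therefore lower at 2-fold, and at least 26.1% by any amount. The share of replication genes that was higher therefore exceeded the share of all genes at the rule without a fold limit, was above it at 1.5-fold and was below it at 2-fold.

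The binomial test assumes no variation between cultures. When a coefficient of variation between replicate cultures was assumed in the exactTest function of edgeR, the counts of replication genes became smaller. At an assumed 0.1, 11 genes (0 lower) were higher by any amount, beside 11.1% of all genes higher and 9.39% lower, and at an unadjusted p under 0.05, 15 were higher and 1 lower, beside 15.5% and 13.8%. Gmnn and Mcm10 passed at 2-fold, beside 7.31% of all genes higher and 5.62% lower. At an assumed 0.2, 0 genes passed at an adjusted p under 0.05, beside 5.01% of all genes higher and 3.59% lower, shares that were the same with and without the 2-fold limit. At an unadjusted p under 0.05, 3 were higher and 0 lower, beside 8.91% and 6.94%. At an assumed 0.4, 0 genes passed, beside 0.91% higher and 0.676% lower of all genes, and 0 without adjustment, beside 3.55% and 2.71%.

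**Figure D1:**
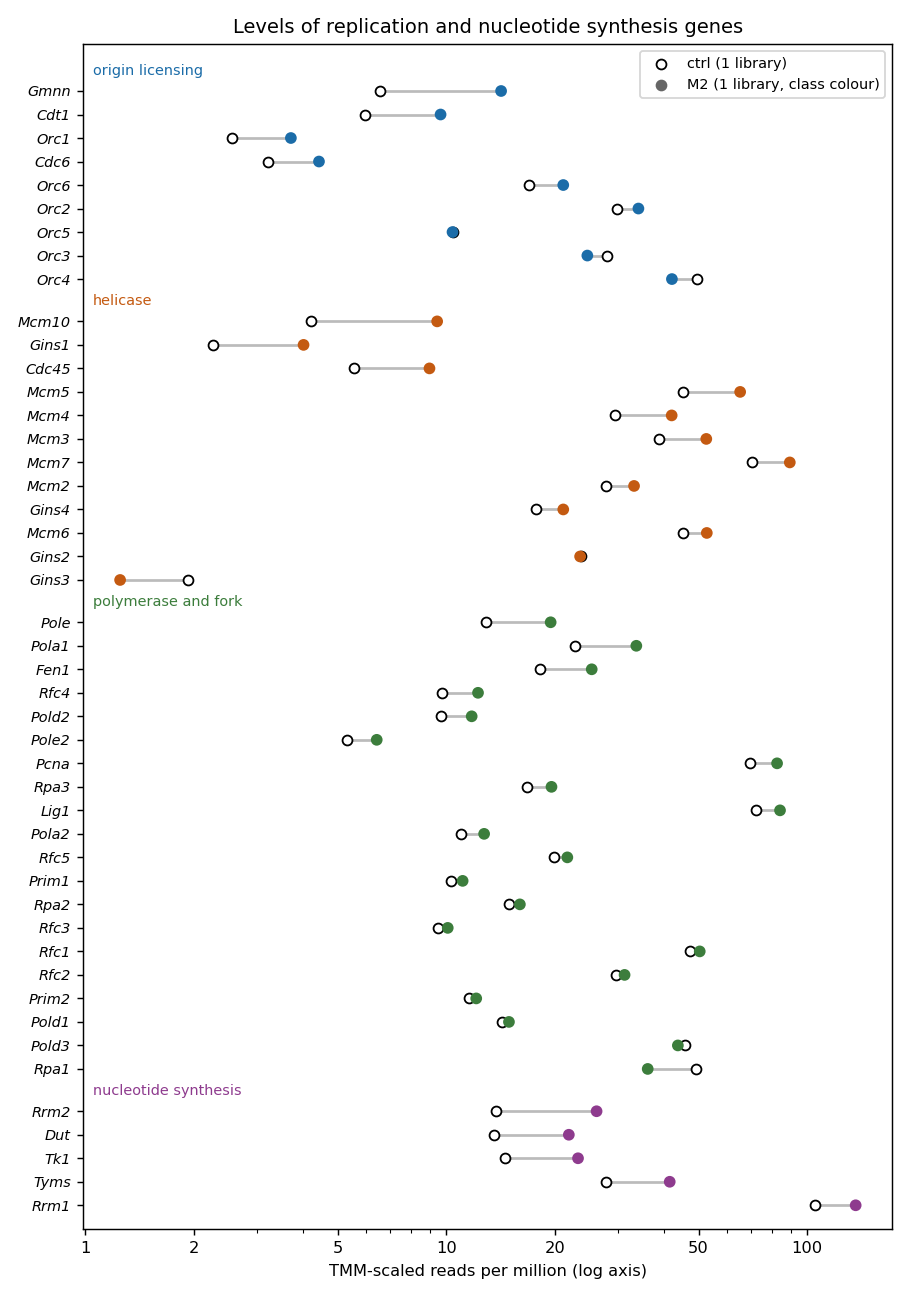
Level of each of the 46 replication genes as TMM-scaled CPM on a log axis, with ctrl as an open circle and M2 as a filled circle, grouped by role and ordered within a role by the difference. Each point is 1 library, so there is no error bar. Rrm1 has the highest CPM and Gins3 the lowest, and Gmnn, Mcm10 and Rrm2 show the longest distances between the circles.

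To set these differences beside regulatory sequence, promoters of 300 bases (250 before the transcription start to 50 after it) were taken from RefSeq on GRCm38.p6, and 38 of the 46 genes had an entry. The words TTTCCCGC, TTTCGCGC, TTTGCCGC and TTTGGCGC, which E2F factors are known to bind, were searched on both strands, as was CCAAT, the word of the factor NF-Y, and TTTGAA, the CHR word found in promoters of G2 and M phase genes. No E2F word contains either of the other words. E2F words were present in 15 of 38 replication promoters (39.5%) and in 2.60% of 27025 genes. CCAAT was present in 23 (60.5%) against 41.1%, and TTTGAA in 5 (13.2%) against 20.2%. E2F words lay in 4 of 8 licensing, 5 of 8 helicase and 6 of 17 polymerase and fork promoters, and in 0 of 5 nucleotide synthesis promoters. The median log2 fold difference was 0.27 for the 15 genes with an E2F word and 0.26 for the 23 genes without one. A match of this kind is a description of letters and not a bound site.

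The promoters below belong to the genes with the highest log2 fold difference in each role that had an entry, and to the 2 genes with the lowest, Gins3 and Rpa1. Each is written 5′ to 3′ along the gene, with E2F words and CCAAT words (either strand) in capitals. Cdt1 (chr8:122567765-122568064, plus strand) carries its E2F word 32 bases past the start, and Pola1 (chrX:93632106-93632405, minus strand) and Gins3 (chr8:95633309-95633608, plus strand) carry theirs 138 and 41 bases before it. Mcm10 (chr2:5012742-5013041, minus strand), Rrm2 (chr12:24708004-24708303, plus strand) and Rpa1 (chr11:75348334-75348633, minus strand) hold CCAAT words and no whole E2F word of this list. The Mcm10 stretch ends in the first letters of TTTGGCGC, and a word cut by the edge was not counted.
Cdt1: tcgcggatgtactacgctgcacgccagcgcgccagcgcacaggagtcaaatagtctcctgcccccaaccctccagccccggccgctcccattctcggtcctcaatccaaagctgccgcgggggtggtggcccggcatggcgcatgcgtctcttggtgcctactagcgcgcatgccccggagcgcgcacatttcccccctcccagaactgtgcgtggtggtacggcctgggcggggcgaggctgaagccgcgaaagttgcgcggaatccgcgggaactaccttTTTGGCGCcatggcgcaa
Mcm10: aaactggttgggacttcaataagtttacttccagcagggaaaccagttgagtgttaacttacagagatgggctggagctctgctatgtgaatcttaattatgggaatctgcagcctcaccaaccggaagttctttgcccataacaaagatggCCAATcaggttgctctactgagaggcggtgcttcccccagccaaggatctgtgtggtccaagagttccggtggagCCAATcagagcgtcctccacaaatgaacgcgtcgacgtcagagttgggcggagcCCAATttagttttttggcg
Pola1: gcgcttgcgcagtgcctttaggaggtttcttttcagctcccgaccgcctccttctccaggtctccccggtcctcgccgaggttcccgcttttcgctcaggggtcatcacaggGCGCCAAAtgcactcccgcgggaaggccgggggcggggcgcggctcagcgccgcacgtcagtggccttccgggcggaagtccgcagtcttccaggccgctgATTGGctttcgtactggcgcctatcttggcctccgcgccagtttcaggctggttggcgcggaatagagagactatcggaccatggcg
Rrm2: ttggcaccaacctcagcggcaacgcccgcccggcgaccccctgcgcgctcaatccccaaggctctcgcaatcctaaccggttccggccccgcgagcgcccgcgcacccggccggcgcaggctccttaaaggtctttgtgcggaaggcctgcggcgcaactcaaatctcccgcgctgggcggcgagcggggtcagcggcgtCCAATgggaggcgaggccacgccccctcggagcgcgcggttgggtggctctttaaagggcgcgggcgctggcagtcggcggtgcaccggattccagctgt
Gins3: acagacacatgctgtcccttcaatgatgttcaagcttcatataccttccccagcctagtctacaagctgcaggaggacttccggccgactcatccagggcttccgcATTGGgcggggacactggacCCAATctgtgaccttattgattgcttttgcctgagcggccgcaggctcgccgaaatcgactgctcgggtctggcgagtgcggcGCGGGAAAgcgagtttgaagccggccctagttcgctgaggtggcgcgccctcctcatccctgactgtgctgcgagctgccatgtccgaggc
Rpa1: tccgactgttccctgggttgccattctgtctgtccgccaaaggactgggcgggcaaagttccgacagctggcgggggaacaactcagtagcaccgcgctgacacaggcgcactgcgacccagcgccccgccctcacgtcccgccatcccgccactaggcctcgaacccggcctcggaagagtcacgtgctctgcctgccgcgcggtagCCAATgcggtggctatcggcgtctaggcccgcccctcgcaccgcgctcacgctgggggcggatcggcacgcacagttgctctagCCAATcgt

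Origin licensing split between the complex that marks origins and the other 3 genes, Cdc6, Cdt1 and Gmnn. Its 9 genes summed to 4197 reads in ctrl against 4737 in M2, giving a log2 ratio of 0.11 (0.05 to 0.17) and a median log2 fold difference of 0.31. The 6 ORC genes together had 3765 reads in ctrl against 3922 in M2, giving a log2 ratio of their summed CPM of -0.01 (-0.08 to 0.05). Cdc6, Cdt1 and Gmnn together had 432 and 815 reads, a log2 ratio of 0.85 (0.68 to 1.02). Of the 3, Gmnn, which opposes licensing, had the most reads in both libraries and the greatest difference. Gmnn encodes geminin, the inhibitor of Cdt1, and had 180 reads in ctrl and 409 in M2. Its level went from 6.55 to 14.2 CPM, a log2 fold difference of 1.11 (0.86 to 1.38; exact binomial test, adjusted p = 2.2e-18). Cdt1, the loader that geminin inhibits, had 164 and 278 reads and a log2 fold difference of 0.69 (0.41 to 0.98). Both genes were higher in M2, and geminin by more: the ratio of Gmnn to Cdt1 reads was 1.10 in ctrl against 1.47 in M2, giving a log2 change of 0.42 (0.03 to 0.81). Cdc6, an ATPase that works with Cdt1, had 88 and 128 reads and a log2 fold difference of 0.47 (0.07 to 0.88).

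Within ORC the genes went in both directions. Orc1, the ATPase subunit whose level is known to vary over the cell cycle, had 70 reads in ctrl against 107 in M2, giving a log2 fold difference of 0.54 (0.09 to 0.999). Orc6 had 466 and 608 reads and a log2 fold difference of 0.31 (0.14 to 0.49), and was higher like Orc1. Orc2 had 815 and 982 reads (0.20, 0.06 to 0.34), but 29.8% of its length also lies in exons of the opposite gene Nif3l1. Orc5 did not pass the test, with 286 and 300 reads and 10.4 CPM in both libraries. Orc3 was lower in M2, with 765 and 709 reads and a log2 fold difference of -0.18 (-0.33 to -0.03). Orc4 was lower too, with 1363 and 1216 reads and a log2 fold difference of -0.23 (-0.35 to -0.12). The opposite gene Acvr2a, which had 3537 reads in ctrl and 1253 in M2, shares 5.98% of the Orc4 length, and its part in the Orc4 result was not tested. Per kilobase of gene model, Orc1 was the least abundant ORC gene, at 0.733 and 1.07 RPKM (CPM divided by length in kilobases), and Orc2 the most abundant, at 7.69 and 8.83 RPKM. The order of the 6 levels was the same in both libraries, and Orc2 stood at 10.5 times the RPKM of Orc1 in ctrl and 8.28 times in M2.

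The helicase genes were higher as a group, and every subunit of the MCM ring was among them. The 6 genes Mcm2 to Mcm7, which encode the hexameric ring that unwinds DNA, had 7052 reads in ctrl against 9660 in M2, giving a log2 ratio of summed CPM of 0.38 (0.34 to 0.43). All 6 were higher, where 27.0% of all genes tested were. They lay between Mcm6 (1244 and 1519 reads, 0.22, 0.11 to 0.33) and Mcm5 (1243 and 1879 reads, 0.53, 0.42 to 0.63). Mcm4 (804 and 1214 reads) was close to Mcm5 at 0.52, and Mcm3 (1070 and 1514 reads) lay at 0.43. Mcm7, the most abundant of them, had 1932 and 2579 reads and a log2 fold difference of 0.35 (0.26 to 0.43). Mcm2, the least abundant per kilobase, had 759 and 955 reads and a log2 fold difference of 0.26 (0.12 to 0.40). None of the 6 differed by 1.5-fold, and their intervals lay between 0.11 and 0.66. Although the 6 subunits work in equal numbers, Mcm7 stood at 15.9 RPKM and Mcm2 at 3.97 RPKM in ctrl, and at 20.2 and 4.76 RPKM in M2. Such levels between genes depend on the length of the gene model.

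Mcm10 and Cdc45, which act on the loaded ring, had greater log2 fold differences than its subunits. They together had 269 and 531 reads, with a log2 ratio of 0.91 (0.70 to 1.13). Mcm10, which takes part in helicase activation and in recruiting polymerase alpha, had 116 reads in ctrl and 272 in M2. Its level went from 4.22 to 9.44 CPM, the greatest log2 fold difference of the 46 genes at 1.15 (0.84 to 1.49; exact binomial test, adjusted p = 2.5e-13). Cdc45, a subunit of the active helicase, had 153 and 259 reads and a log2 fold difference of 0.69 (0.40 to 0.99). That interval overlaps those of ring subunits such as Mcm5 (0.42 to 0.63). The opposite gene Ufd1l (1113 and 1169 reads) shares 9.28% of the Cdc45 length, and its part in the Cdc45 result was not tested. Mcm10 and Cdc45 are scarce transcripts. The ratio of Mcm10 to Mcm2 reads was 0.153 in ctrl against 0.285 in M2, giving a log2 change of 0.90 (0.55 to 1.25).

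The 4 GINS genes, whose products form one complex, did not move together, and their summed reads (1251 and 1437) gave a log2 ratio of 0.13 (0.02 to 0.24). Gins1 had 62 and 116 reads and was higher, with a log2 fold difference of 0.82 (0.38 to 1.30). Gins4 had 488 and 608 reads and was higher by 0.25 (0.07 to 0.42). Gins2 had 648 and 677 reads with 23.6 and 23.5 CPM and did not pass the test, and 67.3% of its length lies in exons of the opposite gene Gse1 (879 and 785 reads). Gins3 had 53 reads in ctrl and 36 in M2, the lowest log2 fold difference of the 46 genes at -0.61 (-1.28 to 0.01; exact binomial test, adjusted p = 0.078). It was the least abundant of the set, and reads this few leave a wide interval.

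**Figure D2:**
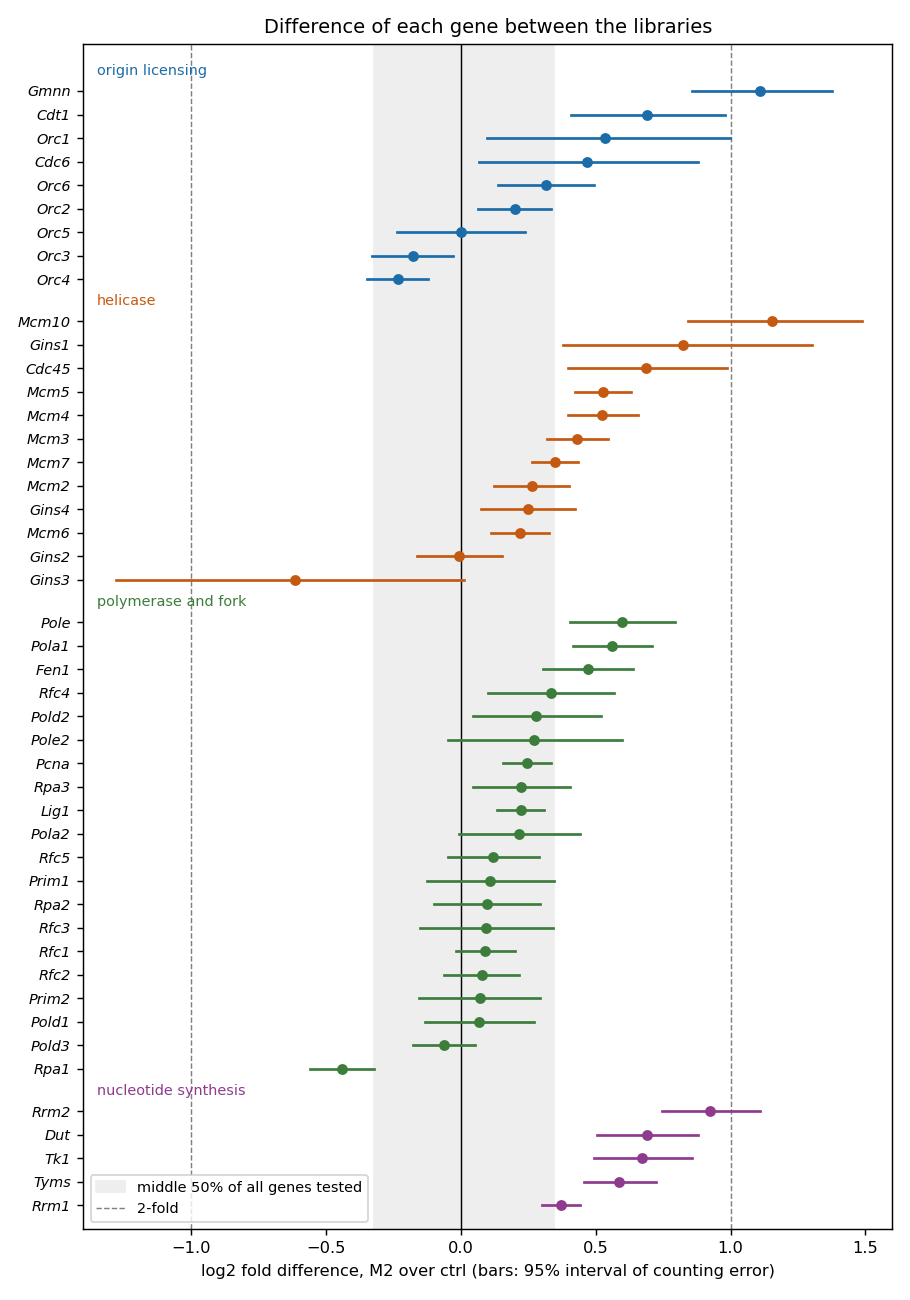
Log2 fold difference of M2 over ctrl for each of the 46 replication genes, with bars for the 95% interval of counting error, grouped by role. The grey band is the middle 50% of all 19233 genes tested and the dashed lines mark 2-fold. Gmnn and Mcm10 lie past the 2-fold line, the points of all 5 nucleotide synthesis genes lie to the right of the band, and those of Rpa1 and Gins3 to its left.

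The polymerase and fork genes had the lowest median log2 fold difference of the 4 roles, 0.17. Their 20 genes summed to 13741 reads in ctrl against 15999 in M2, giving a log2 ratio of 0.15 (0.12 to 0.18), and 8 were higher, 1 was lower and 11 did not pass the test. The 40.0% that were higher stood beside 27.0% of all genes and 31.4% of those as abundant. Pola1, the catalytic subunit of polymerase alpha, which starts each new strand, had 626 and 969 reads and a log2 fold difference of 0.56 (0.41 to 0.71). Its partners did not pass the test: Pola2 had 301 and 367 reads (0.22), and the primase genes Prim1 and Prim2 had 283 and 320 (0.11) and 317 and 349 (0.07). Pole, the catalytic subunit of the leading-strand polymerase epsilon, had 353 and 561 reads and the greatest log2 fold difference of this role, 0.60 (0.40 to 0.80). Its partner Pole2 had 146 and 185 reads (0.27, -0.05 to 0.60) and did not pass.

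Polymerase delta, which copies the lagging strand, differed little. Its catalytic subunit Pold1 had 391 and 430 reads (0.07, -0.13 to 0.27), and Pold3 had 1257 and 1263 reads (-0.06, -0.18 to 0.05). Neither passed the test, whereas Pold2 (266 and 339 reads, 0.28, 0.04 to 0.52) was higher. The ratio of Pole to Pold1 reads was 0.903 in ctrl against 1.30 in M2, giving a log2 change of 0.53 (0.25 to 0.81). The pairs of genes set against each other as read ratios were chosen after their values had been seen, and no p is given for them.

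The sliding clamp and its loader showed small differences. Pcna, the ring that tethers polymerases to DNA, had 1913 reads in ctrl against 2378 in M2, and a log2 fold difference of 0.24 (0.16 to 0.33). It was the most abundant of the 46 genes per kilobase, at 29.0 RPKM in ctrl and 34.4 RPKM in M2, while its processed pseudogene Pcna-ps2 had 19 and 35 reads. Of the 5 clamp loader genes only Rfc4 passed the test (267 and 353 reads, 0.33, 0.10 to 0.57), and 12.6% of its length lies in exons of the opposite and far more abundant Eif4a2 (19542 and 18048 reads). Rfc1, Rfc2, Rfc3 and Rfc5 lay between 0.08 and 0.12. Summed, the 5 genes had 3186 and 3619 reads, a log2 ratio of 0.11 (0.05 to 0.18).

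One subunit of the single-strand binding complex RPA was lower. Rpa1, its large DNA-binding subunit, had 1349 reads in ctrl against 1042 in M2, and its level went from 49.1 to 36.2 CPM. The log2 fold difference was -0.44 (-0.56 to -0.32; exact binomial test, adjusted p = 5.6e-13). Rpa2 did not pass the test (411 and 461 reads, 0.10), and Rpa3 was higher (460 and 564 reads, 0.22, 0.04 to 0.41). Although the 3 proteins form a trimer, the ratio of Rpa1 to Rpa2 reads was 3.28 in ctrl against 2.26 in M2, giving a log2 change of -0.54 (-0.77 to -0.31).

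Both enzymes that finish Okazaki fragments were higher. Lig1, the ligase that seals them, had 1981 and 2423 reads and a log2 fold difference of 0.22 (0.14 to 0.31). Fen1, the nuclease that trims their flaps, had 501 and 729 reads and 0.47 (0.31 to 0.64). However, 78.8% of the Fen1 length lies in exons of the opposite gene Gm10143, whose counts of 505 and 746 nearly equal those of Fen1, and use of strand in counting is not given in the sources used here. Of the 46 genes, 16 share exon bases with another gene, 7 of them over at least 10% of their length.

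**Figure D3:**
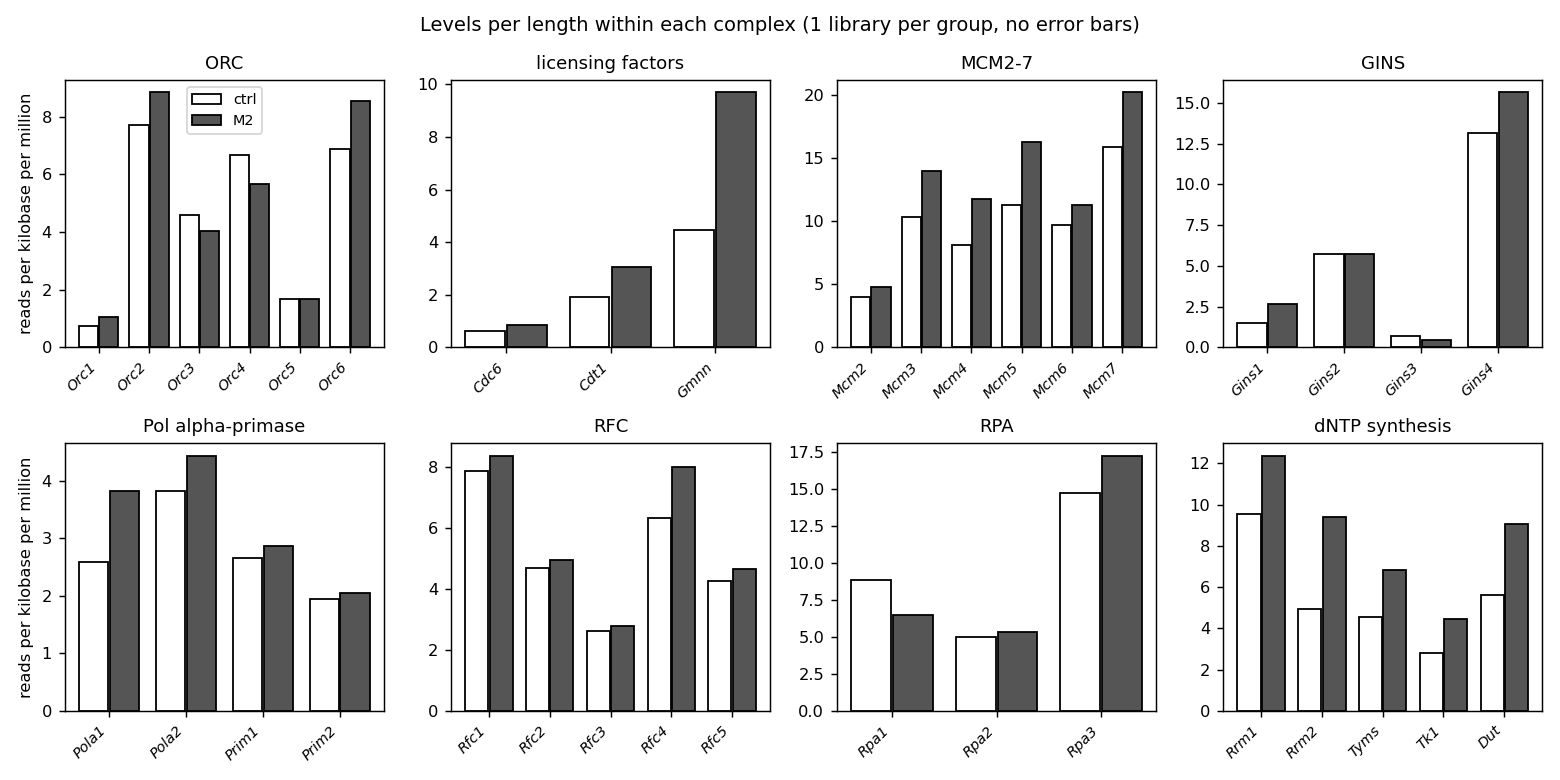
Levels of subunits within 8 complexes or roles as RPKM, with ctrl as open bars and M2 as filled bars, 1 library each and no error bars. Subunits of one complex stand at unequal levels, as for Gins3 and Gins4, and Rpa1 is lower in M2 while Rpa3 is higher. Levels between genes depend on the length of the gene model.

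Nucleotide synthesis was the role in which all 5 genes followed were higher, where 27.0% of all genes tested were. A further 27 enzymes of nucleotide metabolism, described under other observations, were mixed, with 9 higher and 11 lower. The 5 genes had 4802 reads in ctrl against 7175 in M2, giving a log2 ratio of summed CPM of 0.51 (0.46 to 0.56), and their median log2 fold difference was 0.67. Rrm2, the small subunit of ribonucleotide reductase and the one whose protein is limited to dividing cells, had 377 and 752 reads. Its level went from 13.7 to 26.1 CPM, a log2 fold difference of 0.93 (0.75 to 1.11; exact binomial test, adjusted p = 1.3e-24). Rrm1, the large subunit, had 2894 and 3926 reads and a smaller log2 fold difference of 0.37 (0.30 to 0.44). The ratio of Rrm2 to Rrm1 reads was thus 0.130 in ctrl against 0.192 in M2, giving a log2 change of 0.56 (0.36 to 0.75).

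The thymidylate genes lay between those subunits. Dut, the enzyme that keeps uracil out of DNA by removing dUTP, had 372 and 630 reads and a log2 fold difference of 0.69 (0.50 to 0.88). Tk1, the cytosolic thymidine kinase of the salvage route, had 399 and 668 reads and 0.67 (0.49 to 0.86). Tyms, which makes thymidylate from deoxyuridylate, had 760 and 1199 reads and 0.59 (0.46 to 0.72). All 3, with Rrm2, passed the 1.5-fold rule, by which 12.8% of all genes tested were higher, and Rrm1 did not.

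A list of deoxynucleotide enzymes of resting cells or mitochondria went the other way. All 4 genes of that list were lower in M2, where 26.1% of all genes tested were. With exactTest at an assumed coefficient of variation of 0.1, 2 of the 4 were lower, beside 9.39% of all genes. At an assumed 0.2, 0 of the 4 were lower, beside 3.59%. Together the 4 had 5771 reads in ctrl against 4066 in M2, giving a log2 ratio of -0.57 (-0.63 to -0.52). Rrm2b, the alternative small subunit that is used outside S phase, had 672 and 582 reads (-0.28), and Tk2, the mitochondrial thymidine kinase, had 599 and 500 (-0.33). Dguok, the mitochondrial deoxyguanosine kinase, had 411 and 267 reads (-0.69). Samhd1, which breaks deoxynucleotides down and does not make them, had 4089 and 2717 (-0.66) and most of the reads of the list. Without it the other 3 genes had 1682 and 1349 reads, a log2 ratio of -0.39 (-0.49 to -0.28). The ratio of Rrm2 to Rrm2b reads went from 0.561 in ctrl to 1.29 in M2, a log2 change of 1.20 (0.96 to 1.45). That of Tk1 to Tk2 went from 0.666 to 1.34, a log2 change of 1.004 (0.75 to 1.26).

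Scarce and abundant genes were also compared. The 23 replication genes with the lower CPM in ctrl had a median log2 fold difference of 0.33 and the 23 with the higher CPM one of 0.24. Without Gmnn and Mcm10, the summed log2 ratio of the other 44 genes was 0.26 (0.23 to 0.28).

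The other genes of the pathway behaved in mixed ways. Of 29 further fork and firing factors, 16 (55.2%) were higher and 2 lower, with a median log2 fold difference of 0.20. Of all genes tested 27.0% were higher and 26.1% lower, and of those as abundant as the replication genes 31.4% and 30.5%. At 2-fold 2 of the 29 (6.90%) were higher, a share near the 8.16% of all genes tested and the 6.55% of those as abundant. They were Pif1, a helicase (24 and 142 reads, 2.45), and Clspn, the checkpoint mediator claspin (573 and 1337 reads, 1.15). Dbf4, the activator of the Cdc7 kinase that fires origins, had 379 and 733 reads (0.88). Mcm9 (712 and 586 reads, -0.35) and Mcmbp (1245 and 1132 reads, -0.21) were the lower ones. Of 17 regulators of the G1 to S transition, 8 (47.1%) were higher and 3 (17.6%) lower, with a median of 0.13. Ccne1, or cyclin E1, had 146 and 441 reads (1.52), E2f1 had 550 and 1120 (0.96) and E2f8 had 292 and 585 (0.93). E2f2, by contrast, was lower, with 379 and 180 reads (-1.14), as was Rbl2 (1364 and 1167 reads, -0.29).

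Genes of mitosis differed by more than those of replication. All 40 were higher, where 27.0% of all genes tested were. They had 22915 reads in ctrl against 56095 in M2, giving a log2 ratio of 1.22 (1.20 to 1.24) and a median log2 fold difference of 1.27. At 2-fold, 33 of the 40 (82.5%) were higher, beside 8.16% of all genes tested and 2 of the 46 replication genes (4.35%). Ttk, a spindle checkpoint kinase, had 86 and 294 reads (1.69), Hmmr had 362 and 1168 (1.62), and Cenpe, a kinetochore motor, had 573 and 1812 (1.59). The lowest of the list, Racgap1 (738 and 1053 reads, 0.44) and Spc25 (331 and 444 reads, 0.35), lay within the range of the replication genes. These lists are compared as counts and medians, and the difference between them was not tested. The mitosis genes were chosen with earlier results of these data known. The study had also reported signatures of proliferation and division as enriched in M2, so the shares of this list are a description and not an independent check.

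**Figure D4:**
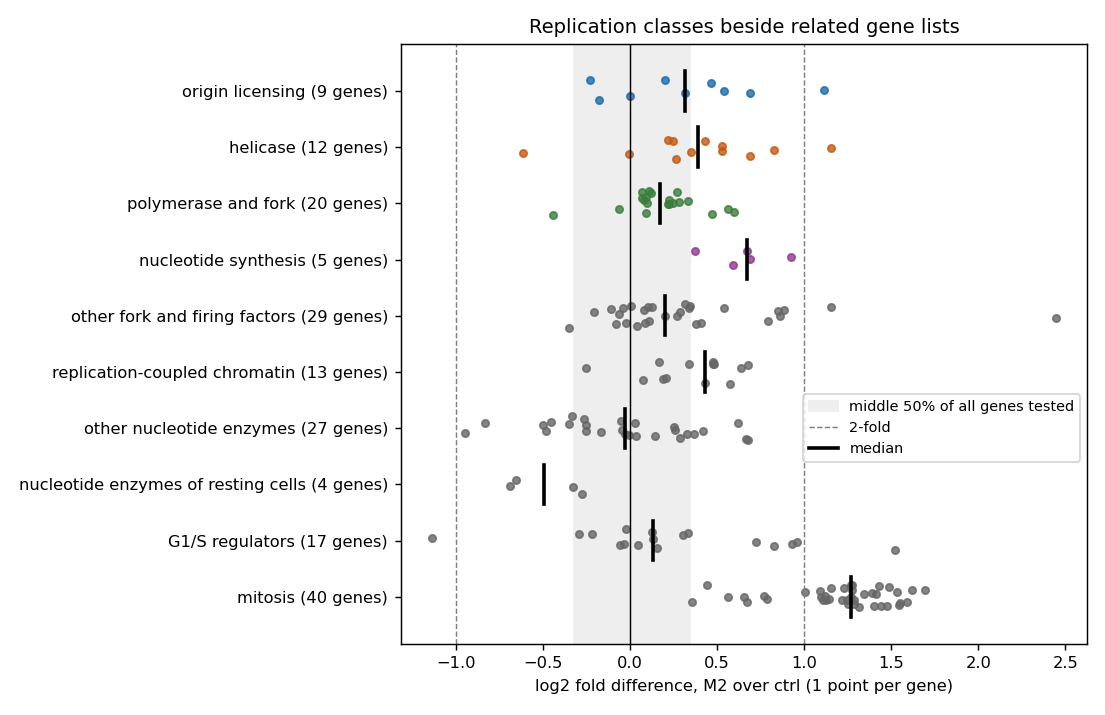
Log2 fold difference of M2 over ctrl with 1 point per gene for the 4 replication roles (coloured) and 6 related lists (grey), with the median of each as a black bar, the middle 50% of all genes tested as a grey band and dashed lines at 2-fold. The median of the mitosis genes is 1.27, those of the replication roles lie between 0.17 and 0.67, and that of the 4 resting-cell enzymes is -0.49.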

How the data were processed

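RNA-seq of 2 libraries was analysed, grouped as ctrl and M2 by their titles. The values deposited by the authors are unnormalized counts of reads for each gene, although the series is described as a microarray. The labels give a column kit for the RNA and a SMARTER kit for the libraries, while RNAiso Plus is the reagent in the study's methods. GRCm38 and mm10 appear in the submitters' processing notes. The aligner, counter, annotation and use of strand are not given in the sources used here. All 46 genes overlap the gene of the same name in GENCODE M21, and 44 have its bounds.

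Genes with at least 10 reads over both libraries (19233) were tested. Sizes were scaled by TMM in edgeR 4.0.16 under R 4.3.3 (factors of 1.02 for ctrl and 0.980 for M2), and log2 fold differences use a pseudocount of 1 read. Each gene was tested by an exact binomial test in scipy 1.17.1, two-sided, with Benjamini-Hochberg adjustment over all genes tested. Intervals are 95% Clopper-Pearson intervals. Molecular identifiers are not mentioned, so these intervals hold counting error alone. RPKM was computed from the CPM and the gene length in the table. That length need not be the length of the transcripts present, so RPKM compared between genes depends on it. The code was tested on simulated data.

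The 46 genes and the gene lists were chosen with earlier results of these data known. All 46 could be named. From each other list the 3 genes with the highest and the 2 with the lowest log2 fold difference among those with at least 100 reads were named, with every gene of the resting-cell list, except that markers were reduced to a few defining genes chosen after their values were seen, as were the genes named for overlap. Promoters were printed for the highest gene of each role with an entry and the 2 lowest genes overall. Gmnn, the highest licensing gene, had no entry. One gene that this rule names is not reported here. Planned protein comparisons were not made, since no protein table was used here. Alternatives covered scaling, filter, pseudocount, gene length and the test.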

Additional observations from a re-analysis of the deposited data

How the results depend on the processing

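With 1 library per group, the spread between cultures is unknown, and counting error is a lower limit of the true error. No paired analysis was possible because ctrl and M2 have 1 library apiece. The count of replication genes higher at 2-fold was 2, Gmnn and Mcm10, under every scaling, filter, pseudocount and length alternative and with exactTest at an assumed coefficient of variation of 0.1, and it was 0 at 0.2 and 0 at 0.4. The count at 1.5-fold was 10 in the report, 8 with total library size and 11 after removal of a length trend, and it was 0 with exactTest at 0.2 and 0 at 0.4. Total library size lowered the summed log2 ratio to 0.31 for the helicase, 0.091 for the polymerases and fork and 0.45 for nucleotide synthesis, by construction of the smaller M2 scaling factor, and that of origin licensing from 0.11 to 0.046. It also took Orc1, Orc2, Cdc6, Gins4, Pold2 and Rpa3 out of the genes with an adjusted p under 0.05, leaving 23 higher and 3 lower. Keeping genes with at least 1 read took out Cdc6, leaving 28 higher. Shares of all genes under the alternatives of scaling, filter, pseudocount and length are not given here, so these counts have no background beside them. The median log2 fold difference of the 46 genes ranged from 0.21 to 0.27 over its alternatives, and no direction turned for a gene that passed the test. Genes with under 100 reads in ctrl, such as Gins3, Gins1, Orc1 and Cdc6, are limited most by depth. The related lists also lost genes with exactTest. At an assumed 0.1, 36 of 40 mitosis genes, 5 of 29 fork and firing factors and 2 of 13 genes that rebuild chromatin were higher, beside 11.1% of all genes. At 0.2 the counts were 23, 1 and 0, beside 5.01%, and at 0.4 each was 0, beside 0.91%.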

Other observations

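Genes that rebuild chromatin behind the fork were also mostly higher in M2. Of 13 such genes, 10 (76.9%) were higher and 1 lower by the exact binomial test, with a median log2 fold difference of 0.43. Beside them stood 27.0% and 26.1% of all genes tested, and 31.4% and 30.5% of those as abundant as the replication genes. Hells, a chromatin remodeller needed for DNA methylation, had 982 reads in ctrl against 1646 in M2, giving a log2 fold difference of 0.68. The histone chaperone Asf1b had 104 and 170 reads (0.63), and Uhrf1, which brings the maintenance methyltransferase to newly copied DNA, had 866 and 1350 reads (0.57). Dnmt1, that methyltransferase, was lower, with 3661 and 3221 reads (-0.25). Mms22l, a repair factor of stalled forks, had 189 and 209 reads (0.08) and did not pass the test.

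The remaining enzymes of nucleotide metabolism did not share one direction. Of 27 such genes, 9 (33.3%) were higher and 11 (40.7%) lower, with a median log2 fold difference of -0.03. Of all genes tested 27.0% were higher and 26.1% lower, and of those as abundant as the replication genes 31.4% and 30.5%. Nme1, a nucleoside diphosphate kinase, had 596 and 998 reads (0.67), and Ctps, which makes CTP, had 1644 and 2645 (0.62). Shmt1, a folate enzyme that feeds thymidylate synthesis, was lower, with 839 and 456 reads (-0.95). Prps2, which makes the ribose precursor of purines and pyrimidines, was lower too, with 1952 and 1147 reads (-0.84).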
